A study of Homo sapiens with 4 samples.

Results

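The genes examined here are 10 members of the bone morphogenetic protein (BMP) pathway, chosen by name: the ligands BMP2, BMP4 and BMP7, the receptors BMPR1A, BMPR1B and BMPR2, and the target genes ID1, ID2, ID3 and ID4. They were found as the array probes whose RefSeq accession belongs to one of these genes, which gave 15 of 41000 probes and 10 of 16422 named genes. Their mRNA levels were measured in 4 samples of total RNA, each on 1 array. Parental SkBr3 and parental BT474 cells, which are HER2-positive human breast cancer lines, were cultured with vehicle. SkBr3/Lap#6 and BT474/Lap#3 cells, 1 lapatinib-resistant clone of each line, had been selected with lapatinib raised to 1 μM, and the labels give lapatinib as their treatment. Lapatinib inhibits the tyrosine kinases EGFR and HER2. In the sample labels the SkBr3 clone carries number 3 and the BT474 clone number 6, and the numbers of the study's text are kept here. Because the clones differed from their parental cells both in selection and in the drug, these cannot be told apart, and a single clone stands for resistance in each line.

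BMPs are secreted ligands of the TGF-β superfamily. They bind a complex of type I receptors (such as BMPR1A and BMPR1B) and type II receptors (such as BMPR2), which phosphorylates SMAD1, SMAD5 and SMAD9, and these enter the nucleus with SMAD4. The ID genes are textbook immediate targets of this signal, and their products are helix-loop-helix proteins without a DNA-binding region that sequester E proteins and so hold back differentiation. ID genes also respond to other inputs, including serum growth factors.

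All values below start from the processed signal, the background-subtracted brightness of a spot. Values of a pair are given with the parental cells first. The 75th percentile of the signals was 1115 and 2074 in the SkBr3 pair and 1158 and 1681 in the BT474 pair, and a level is the log2 signal minus that of this percentile. A fold change is the difference of such levels between a clone and its own parental cells, so equal signals on both arrays of a pair give a value below 0. The software marked 66.6% to 74.0% of probes as well above background. The lowest such signal of an array lay between 13.3 and 16. Every member probe was spotted once. For 204 to 222 probes spotted 10 times and well above background, the median log2 SD among spots was 0.06 to 0.07, a spread within single arrays only. With 1 array per group, no difference between a clone and its parental cells can be tested, and changes of at least 2-fold are counted beside the same count over all genes. The SkBr3/Lap#6 array lay on a slide of its own and the other 3 shared one, so slide and resistance cannot be told apart for SkBr3.

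Of 11 luminal and HER2 markers, 9 to 11 were well above background on each array. Their summed level, in units of the 75th percentile, was 843 and 497 in the SkBr3 pair and 803 and 539 in the BT474 pair. Before this scaling, the summed signals were 940306 and 1030900 in the SkBr3 pair and 929855 and 906824 in the BT474 pair. By level, ERBB2, which encodes HER2, was 3.74-fold and 1.57-fold lower in the clones. SkBr3 cells are known to lack E-cadherin and the estrogen receptor, and CDH1 and ESR1 were not well above background in parental SkBr3. The summed level of the 7 fibroblast markers on the array was 1.51 and 1.26 in the SkBr3 pair and 1.12 and 1.03 in the BT474 pair, with 4 of 7 well above background in SkBr3/Lap#6 and 1 of 7 on the other arrays. Most of each sum came from THY1, with signals of 1654 and 2150 in the SkBr3 pair and 1275 and 1705 in the BT474 pair. COL1A2, DCN and LUM were not well above background on any array. COL3A1, PDGFRB and FAP were so in SkBr3/Lap#6 only, at signals of 347, 64.8 and 35.4. The 5 endothelial markers summed to 0.176, 0.687, 0.789 and 0.398 in the same order, with 2, 4, 1 and 2 of 5 well above background. The 6 white blood cell markers summed to 0.801, 0.541, 0.117 and 0.138, and PTPRC was not well above background on any array. The part of these markers in the results was not tested. In such bulk RNA, fewer cells that express a gene and less of its RNA per cell cannot be told apart.

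In SkBr3/Lap#6 cells, ID1, ID2, BMP4 and BMP7 were lower than in SkBr3 cells and ID4 was higher. In BT474/Lap#3 cells, ID1, ID3 and ID4 were higher than in BT474 cells and BMP7 was lower. ID1, the archetypal BMP target, thus lay 15.4-fold lower in the first clone and 2.69-fold higher in the second, whereas BMP7 was lower and ID4 higher in both. The receptors BMPR1A and BMPR2 differed less than 2-fold in either clone by their brightest probes. Of the 10 genes, 8 had a brightest probe with a signal of at least 100 on at least 1 array, and BMP2 and BMPR1B did not. In SkBr3/Lap#6, 1 of the 8 was at least 2-fold higher, where 14.1% of 12136 genes were, and 4 were at least 2-fold lower, where 14.4% were. In BT474/Lap#3, 3 of the 8 were at least 2-fold higher, where 9.13% of genes were, and 1 was at least 2-fold lower, where 5.41% were. The median of their log2 fold changes was -1.58 in the SkBr3 clone and 0.29 in the BT474 clone, beside -0.06 and -0.09 over all genes.

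**Figure D1:**
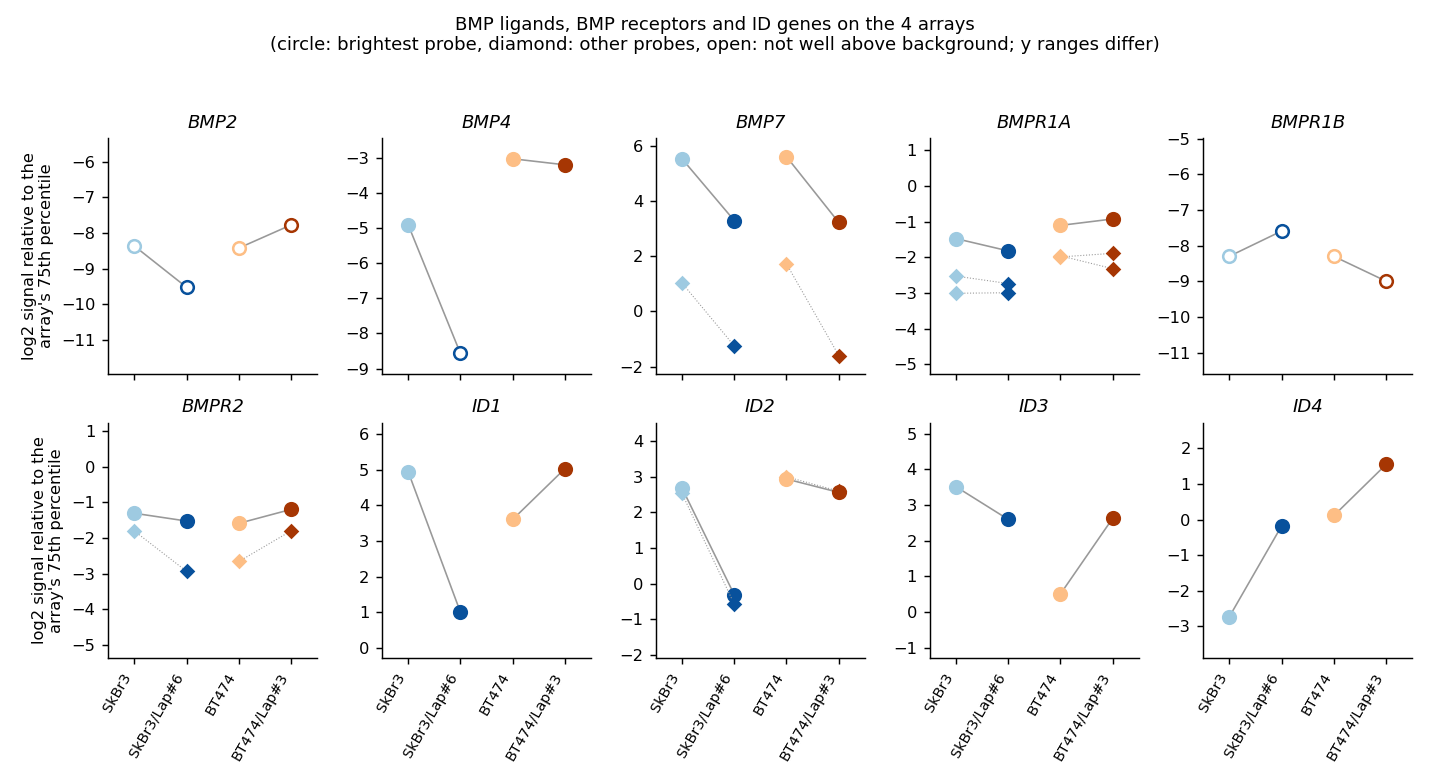
Levels of the 10 genes on the 4 arrays, as log2 signal relative to the 75th percentile of the array, with 1 panel per gene. Circles are the brightest probe of a gene, diamonds its other probes and open symbols signals not well above background; lines join each parental line with its clone, and the clone is the lower of both pairs for BMP7, the higher of both for ID4, and lower in 1 pair and higher in the other for ID1.

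Among the ligands, BMP7 is a widely expressed epithelial BMP. Its brightest probe had signals of 51459 and 20289 in the SkBr3 pair and 56218 and 15653 in the BT474 pair. Both parental lines were high and both clones low, and the parental levels differed by 1.05-fold. The log2 fold changes were -2.24 and -2.38, or 4.72-fold and 5.21-fold lower in the clones of SkBr3 and BT474. The other BMP7 probe, with signals of 2277 and 872 in the SkBr3 pair and 3816 and 554 in the BT474 pair, gave -2.28 and -3.32. The probes thus gave the same direction in both pairs, and in BT474/Lap#3 their distance exceeded the median distance between the probes of 1 gene, 0.28. Both clones were past 2-fold lower for 1.45% of all genes.

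BMP4, a ligand that acts in mammary and mesodermal development, was dim. Its signals were 37.1 and 5.46 in the SkBr3 pair and 142 and 183 in the BT474 pair. It was well above background on 3 arrays and not on that of SkBr3/Lap#6. Taken against the lowest signal that the software marked on that array, 13.3, the level in SkBr3/Lap#6 was 5.19-fold lower than in SkBr3. This is not a strict limit, since a CRIM1 probe with a signal of 16.4 was not marked on that array. In BT474/Lap#3 the log2 fold change was -0.17. BMP4 passed the signal filter through the BT474 arrays. After background correction by the normexp method and quantile normalization, its value in SkBr3/Lap#6 was -0.80, under 2-fold.

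BMP2, a ligand best known for inducing bone, had signals of 3.38 and 2.82 in the SkBr3 pair and 3.38 and 7.70 in the BT474 pair. None of them was well above background, and no fold change is given.

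BMPR1A is the broadly expressed type I receptor. Its brightest probe had signals of 401 and 587 in the SkBr3 pair and 538 and 884 in the BT474 pair, with log2 fold changes of -0.34 and 0.18. The other 2 probes gave 0.01 and -0.21 in SkBr3/Lap#6 and -0.36 and 0.10 in BT474/Lap#3. No probe of BMPR1A reached a 2-fold difference between a clone and its parental cells.

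BMPR2 is the type II receptor of the BMPs. Its brightest probe had signals of 450 and 720 in the SkBr3 pair and 385 and 733 in the BT474 pair, with log2 fold changes of -0.22 and 0.39. The other probe, with signals of 319 and 270 and of 183 and 483, gave -1.13 and 0.86. The probes agreed in sign and differed in size, and only the dimmer one was past 2-fold in SkBr3/Lap#6. The changes of the probes lay farther apart there than the median distance, 0.29.

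BMPR1B, a type I receptor with a narrower expression, had signals of 3.54 and 10.8 in the SkBr3 pair and 3.66 and 3.28 in the BT474 pair. No signal was well above background on any array, so that neither a level nor a change is given.

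The ID genes showed the largest spans by their brightest probes among the members well above background on all 4 arrays. Because all 4 are read as BMP targets, the 250 bases before the annotated start of each are shown to compare the sequences that lie upstream of genes with unlike changes. They are taken from RefSeq on GRCh38.p14, where 8 of the 10 members had an entry. The windows are chr20:31605039-31605288 on the plus strand for ID1, chr2:8681806-8682055 on the plus strand for ID2, chr1:23559502-23559751 on the minus strand for ID3 and chr6:19837120-19837369 on the plus strand for ID4. Capitals mark GGAGCC on either strand, a GC-rich element that SMAD1 and SMAD5 can bind.
ID1: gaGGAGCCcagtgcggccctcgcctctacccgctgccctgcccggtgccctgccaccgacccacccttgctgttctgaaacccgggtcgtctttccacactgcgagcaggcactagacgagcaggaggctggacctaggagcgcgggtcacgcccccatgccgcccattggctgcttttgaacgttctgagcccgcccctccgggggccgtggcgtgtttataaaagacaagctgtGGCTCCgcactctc
ID2: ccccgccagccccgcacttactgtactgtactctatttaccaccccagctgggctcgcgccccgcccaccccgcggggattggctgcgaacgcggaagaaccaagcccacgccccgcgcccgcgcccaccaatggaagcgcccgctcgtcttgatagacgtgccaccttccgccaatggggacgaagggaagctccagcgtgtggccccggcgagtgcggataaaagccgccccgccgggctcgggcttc
ID3: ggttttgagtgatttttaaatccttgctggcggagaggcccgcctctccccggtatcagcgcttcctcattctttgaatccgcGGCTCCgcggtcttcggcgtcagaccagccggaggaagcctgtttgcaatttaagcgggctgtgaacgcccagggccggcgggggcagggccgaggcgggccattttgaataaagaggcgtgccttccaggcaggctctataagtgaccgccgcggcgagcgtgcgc
ID4: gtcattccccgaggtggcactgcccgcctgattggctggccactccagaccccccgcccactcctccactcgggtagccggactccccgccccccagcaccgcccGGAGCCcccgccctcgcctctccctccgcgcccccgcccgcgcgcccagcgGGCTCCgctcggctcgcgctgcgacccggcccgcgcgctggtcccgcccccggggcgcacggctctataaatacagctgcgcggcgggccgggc
GGAGCC occurred 2 times before ID1, 248 and 14 bases upstream of the start by its first base, 1 time before ID3, at 167, and 2 times before ID4, at 145 and 94. It did not occur in the ID2 window, and 30.6% of 35116 promoter windows of this length held it. GGCGCC, another GC-rich SMAD element, occurred in none of the ID windows and in 16.4% of all windows. Sequence beyond these 250 bases was not searched, so elements farther upstream would be missed. The GC content was 66.0% for ID1, 69.2% for ID2, 62.0% for ID3 and 78.8% for ID4. A match is a description of the letters only.

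ID1 had signals of 34389 and 4158 in the SkBr3 pair and 14120 and 55061 in the BT474 pair. The order from high to low was BT474/Lap#3, SkBr3, BT474 and SkBr3/Lap#6 by level, and the 2 highest levels, 5.03 and 4.95, were close. The log2 fold changes were -3.94 and 1.43, so that the clone was the lower array of the SkBr3 pair and the higher of the BT474 pair. Of all genes, 2.24% were at least 2-fold lower in SkBr3/Lap#6 and at least 2-fold higher in BT474/Lap#3.

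ID2 is another broadly expressed family member. Its brightest probe had signals of 7157 and 1670 in the SkBr3 pair and 8838 and 9890 in the BT474 pair. SkBr3/Lap#6 stood apart below the other 3 arrays, whose levels lay between 2.56 and 2.93. The log2 fold changes were -2.99, or 7.97-fold lower, and -0.37. The other ID2 probe gave -3.10 and -0.40.

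ID3, which is often regulated together with ID1, had signals of 12790 and 12589 in the SkBr3 pair and 1636 and 10358 in the BT474 pair. Parental BT474 was the low array, and the other 3 lay between 2.60 and 3.52 by level. ID3 was 4.36-fold higher in BT474/Lap#3 (log2 2.13). In SkBr3/Lap#6 the value was -0.92, under 2-fold, from nearly equal signals on arrays with unequal 75th percentiles, and -1.10 after normexp correction and quantile normalization.

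ID4, the family member tied to basal and progenitor cells of the mammary gland, had signals of 169 and 1840 in the SkBr3 pair and 1254 and 4924 in the BT474 pair. SkBr3 was the lowest array and BT474/Lap#3 the highest. The log2 fold changes were 2.55 and 1.44, or 5.85-fold and 2.71-fold higher in the clones. Both clones were past 2-fold higher for 3.07% of all genes.

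Set side by side, the change in SkBr3/Lap#6 minus that in BT474/Lap#3 was -5.37 for ID1, -3.04 for ID3, -2.62 for ID2, 1.11 for ID4 and 0.14 for BMP7 on the log2 scale. It was -3.49 for BMP4, whose signal in SkBr3/Lap#6 was not well above background, -0.61 for BMPR2 and -0.53 for BMPR1A. ID1, ID2, ID3, BMP4 and both of these receptors thus had the lower value in SkBr3/Lap#6. ID4 had the higher value there and BMP7 nearly the same value. These differences between the clones were not tested, since each rests on 4 arrays without replicates.

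**Figure D2:**
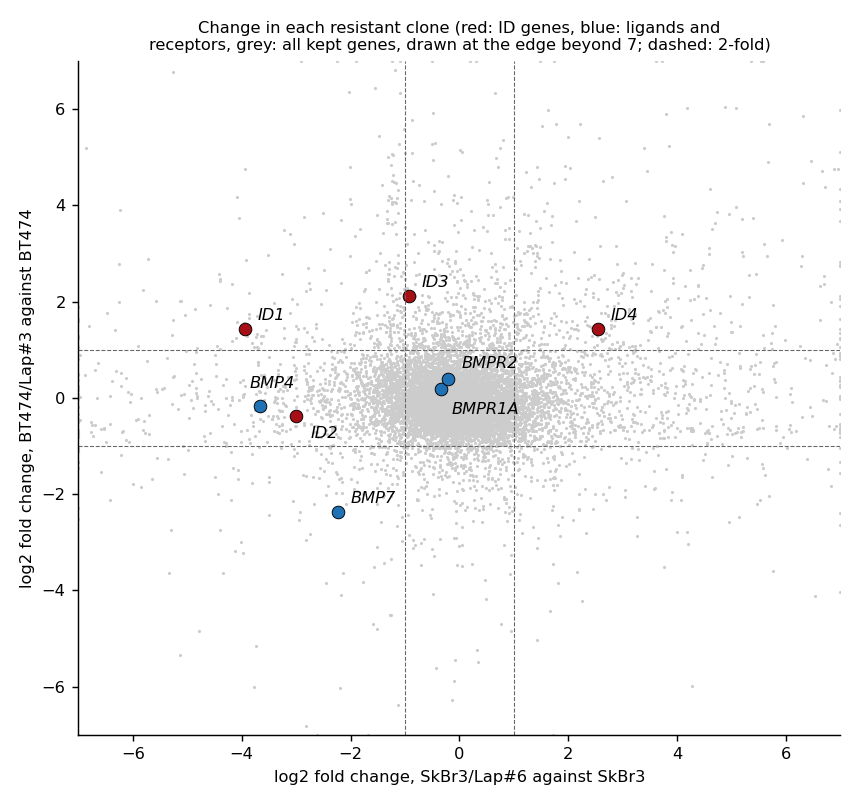
Log2 fold change in SkBr3/Lap#6 (horizontal) against that in BT474/Lap#3 (vertical) for the 8 members that passed the signal filter, with ID genes in red, ligands and receptors in blue and all 12136 kept genes in grey. Dashed lines mark 2-fold, and ID1 lies at upper left, ID4 at upper right and BMP7 at lower left.

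The parental lines already differed in the ID genes. ID3 was 8.12-fold higher in SkBr3 than in BT474 and ID1 was 2.53-fold higher, while ID4 was 7.14-fold lower and BMP4 3.67-fold lower. The levels of ID2, BMP7, BMPR1A and BMPR2 differed by less than 2-fold by their brightest probes. These were 2 higher and 2 lower of 8 genes, where 19.1% and 19.7% of all genes were. For ID3, the clones differed less than their parental cells, at levels of 2.60 (SkBr3/Lap#6) and 2.62 (BT474/Lap#3) against 3.52 and 0.50 in the parental cells.

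A single fit treated the cell lines as replicates of resistance, with cell line as a block and 1 residual degree of freedom (limma). Of 25927 probes, 0 had a Benjamini-Hochberg adjusted p below 0.05 and 900 (3.47%) an unadjusted p below 0.05. Among the 13 member probes in the fit, 3 had an unadjusted p below 0.05, namely both BMP7 probes and that of ID4, and ID4 was no longer among them without the cell line block or with slide as the block. The limma estimates were -2.31 (SE 0.42) and -2.80 (SE 0.50) for the brighter and the dimmer BMP7 probe and 1.99 (SE 0.51) for ID4, each with an adjusted p of 1.00. For ID1 the estimate was -1.26 (SE 1.5).

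By their levels on the 4 arrays, each centered on its own mean, the genes nearest to ID1 among 11491 genes well above background throughout were ATP8A1 (log2 fold changes -3.54 and 1.41), SUSD4 and BIVM. Those nearest to ID2 were PAG1, ZNF138 and CD9, to ID3 ARMC9, PGAP1 and TAF5L, and to ID4 PLXDC2, IRS1 and DYNLRB2. The gene nearest to BMP7 was KCNS3, at -2.32 in SkBr3/Lap#6 and -2.35 in BT474/Lap#3, followed by SPRY4 and TMEM268. CLCN6, ZNF557 and VPS51 were nearest to BMPR1A, and DCLK2, SIRT1 and DHDH to BMPR2, where changes were small. The Euclidean distance of the nearest gene was 0.21 for ID2, 0.22 for BMP7, 0.27 for ID3, 0.29 for ID1 and 0.37 for ID4. With 4 arrays this describes likeness on these arrays only.

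The rest of the pathway was read through 6 lists of 69 genes in all, 68 of them on the array and 41 past the signal filter, with SMAD6 and SMAD7 on 2 of them. Among the other genes that BMPs induce, SMAD6, BAMBI, DLX2 and ATOH8 were at least 2-fold lower in SkBr3/Lap#6 and none of the 9 measured was higher, with a median of -0.76, where 14.4% of all genes were lower and 14.1% higher. In BT474/Lap#3, DLX3 and ATOH8 were at least 2-fold higher and none lower, with a median of 0.48, where 9.13% of all genes were higher and 5.41% lower. ATOH8, a BMP-induced bHLH factor, had signals of 148 and 29.6 in the SkBr3 pair and 112 and 1833 in the BT474 pair, with log2 fold changes of -3.22 and 3.49. Like ID1, it was lowest in SkBr3/Lap#6 and highest in BT474/Lap#3. SMAD6, an inhibitory SMAD of BMP feedback, had signals of 356 and 94.6 and of 137 and 284, with -2.81 and 0.52. SMAD7, the other inhibitory SMAD, was under 2-fold at -0.76 and 0.83. BAMBI, a decoy receptor, had signals of 44087 and 32309 and of 59778 and 74163, with -1.34 and -0.23. DLX2, a homeobox gene, was lower by 3.60 on its brightest probe in SkBr3/Lap#6, from a signal of 317 to 48.7. That probe passed the signal filter through parental SkBr3 only, the array where it was high. DLX3 in BT474/Lap#3 was at 1.18 and under 2-fold, at 0.97, when arrays were scaled by the median.

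Among the SMADs and the SMURF ubiquitin ligases, the receptor-activated SMAD1 and SMAD5 differed less than 2-fold in both clones, at -0.56 and -0.04 for SMAD1 and -0.04 and -0.06 for SMAD5. SMAD4, the partner shared with TGF-β signaling, had signals of 171 and 39.9 in the SkBr3 pair and 872 and 1648 in the BT474 pair. Its 10 spots had an SD of 0.04 to 0.17 on the log2 scale on the 4 arrays. It was 7.98-fold lower in SkBr3/Lap#6, with log2 values between -3.03 and -1.61 under the other ways of computing, and at 0.38 in BT474/Lap#3. SMAD9 was 3.54-fold higher in BT474/Lap#3, from a signal of 45.1 to 232, and 0.93 on the log2 scale after normexp correction. SMAD9 passed the signal filter through BT474/Lap#3 only, the array where it was high. In all, 2 of the 8 genes of this list were lower in SkBr3/Lap#6, SMAD4 and SMAD6, where 14.4% of all genes were, and 1 was higher in BT474/Lap#3, near the 9.13% of all genes.

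By their brightest probes, extracellular antagonists and modulators of BMPs were higher or under 2-fold wherever they passed the filter, which 6 of 16 did. In SkBr3/Lap#6, 4 were at least 2-fold higher and 0 lower, with a median of 2.23, where 14.1% and 14.4% of all genes were, and in BT474/Lap#3, 4 were higher and 0 lower, with a median of 1.1, where 9.13% and 5.41% of all genes were. FSTL1, a secreted follistatin-like glycoprotein, had signals of 1286 and 18751 in the SkBr3 pair and 3810 and 25006 in the BT474 pair. Its log2 fold changes were 2.97 and 2.18. CRIM1, a membrane protein with cysteine-rich repeats that binds BMPs, had signals of 229 and 3437 and of 132 and 941, with 3.01 and 2.29. For FSTL1 and CRIM1 the clone was thus the higher array of either pair. FSTL3, which binds activins and some BMPs, was 16.3-fold higher in SkBr3/Lap#6 and at -0.15 in BT474/Lap#3. NBL1, a DAN-family antagonist, was at 1.48 in SkBr3/Lap#6, or 0.85 after normexp correction, and -0.79 in BT474/Lap#3. CHRD and TWSG1 act together on BMPs outside the cell. The brightest CHRD probe was at 1.14 in BT474/Lap#3 and the other, well above background on all 4 arrays, at -0.48, and CHRD was under 2-fold under 5 of 8 other ways of computing, at 0.33 in the lowest. The brightest TWSG1 probe was at 1.07 there and the other 2 at 1.30 and -0.08, and TWSG1 was under 2-fold when arrays were scaled by the median and, at 0.76, as the mean over its probes. In SkBr3/Lap#6 the brightest TWSG1 probe was at -0.57 and the other 2 at -1.01, just past 2-fold lower, and -0.24. Noggin (NOG) stayed dim, with signals of at most 26.0, and only the BT474 pair was well above background.

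**Figure D3:**
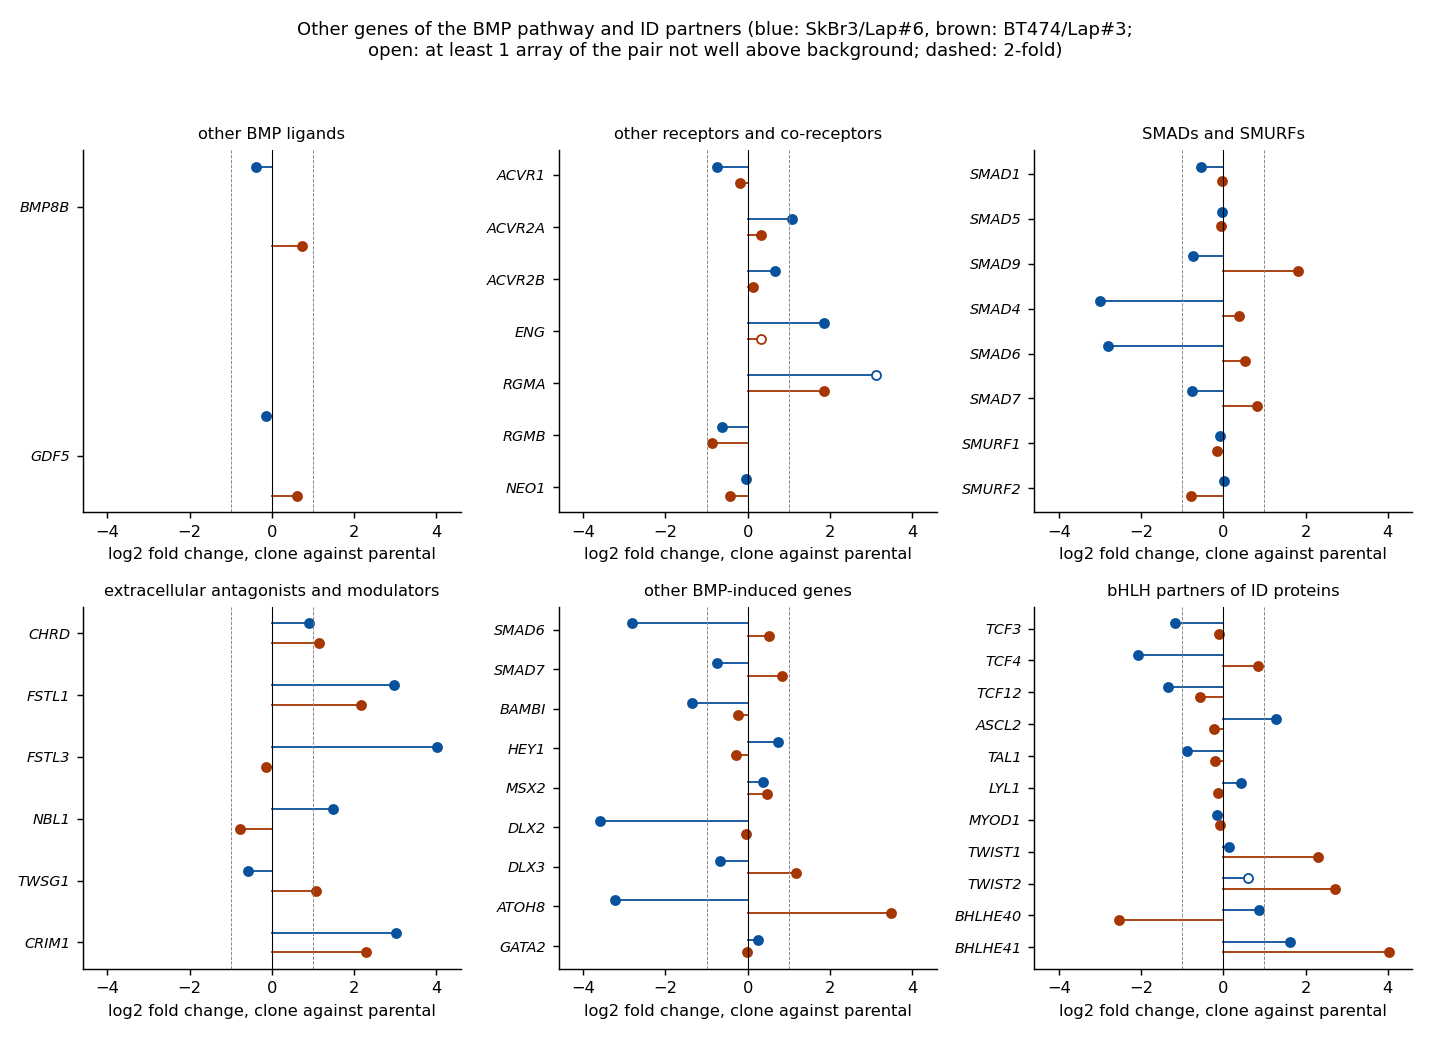
Log2 fold change of each list gene that passed the signal filter, in SkBr3/Lap#6 (blue) and BT474/Lap#3 (brown), with 1 panel per list. Open points have at least 1 array of the pair not well above background and dashed lines mark 2-fold; FSTL1 and CRIM1 lie to the right in both clones, and ATOH8 on opposite sides.

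Of the other receptors and co-receptors, 7 of 9 passed the filter. In SkBr3/Lap#6, 3 were at least 2-fold higher and 0 lower, beside 14.1% and 14.4% of all genes, and in BT474/Lap#3, 1 was higher, near the 9.13% of all genes. ENG, the co-receptor endoglin, had signals of 476 and 3225 in the SkBr3 pair, with a log2 fold change of 1.87. RGMA, a BMP co-receptor of the repulsive guidance family, was well above background in SkBr3/Lap#6 but not in SkBr3. It was counted there by its measured signals, and was 1.84-fold higher when set against the lowest signal marked in SkBr3. It was 3.60-fold higher in BT474/Lap#3 with signals of 174 and 910. ACVR2A, a type II receptor, was at 1.09 in SkBr3/Lap#6 and 0.75 after normexp correction. Of the other ligands, 2 of 10 on the array passed the filter, BMP8B and GDF5, and both differed less than 2-fold in both clones by their brightest probes. For BMP8B the brightest probe was at -0.38 in SkBr3/Lap#6, whereas the mean over its 3 probes was 1.15. Another BMP8B probe, not well above background in SkBr3, was 3.67-fold higher when set against the lowest signal marked in SkBr3.

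Among the bHLH proteins that ID proteins can bind or oppose, the 3 E protein genes were lower in SkBr3/Lap#6. TCF3 had signals of 14157 and 11653 in the SkBr3 pair and 22646 and 30522 in the BT474 pair, and log2 fold changes of -1.18 and -0.11. TCF12 was at -1.34 and -0.57, and TCF4 at -2.09 and 0.85. The other probes of TCF3 and TCF12 gave -0.98 and -0.94 in the SkBr3 clone, just under 2-fold. BHLHE41, a transcriptional repressor, was higher in both clones, at 1.61 and 4.04. Its relative BHLHE40 was at 0.87 in SkBr3/Lap#6 and lower in BT474/Lap#3, at -2.55. TWIST1 and TWIST2, mesenchymal bHLH factors, were higher in BT474/Lap#3, at 2.31 and 2.71, and TWIST1 was at 0.15 in SkBr3/Lap#6. TWIST2 passed the signal filter through BT474/Lap#3 only, at a signal of 436. The other TWIST1 probe was at 1.05 in BT474/Lap#3, just past 2-fold. ASCL2 was at 1.28 in SkBr3/Lap#6 and at 0.52 as the mean over its probes. In all, 2 of the 11 genes of this list that passed the filter were higher and 3 lower in SkBr3/Lap#6, beside 14.1% and 14.4% of all genes, and 3 were higher and 1 lower in BT474/Lap#3, beside 9.13% and 5.41%.

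**Figure D4:**
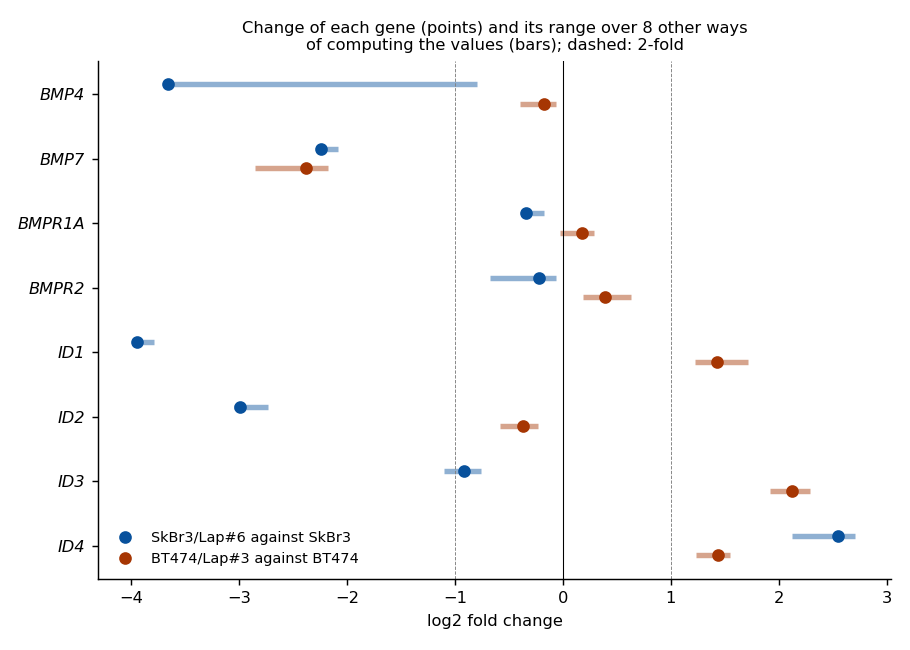
Log2 fold change of the 8 members in SkBr3/Lap#6 (blue) and BT474/Lap#3 (brown), as points, with bars for the range over 8 other ways of scaling, correcting or summarizing the signals. The bar of BMP4 in SkBr3/Lap#6 reaches -0.80, inside the dashed 2-fold lines, while those of ID1, ID2, ID4 and BMP7 in that clone stay outside them.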

How the data were processed

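Total RNA of 4 samples was labeled with Cy3 and hybridized to Agilent Human Whole Genome arrays, 1 per sample. The authors deposited Feature Extraction 10.1.1.1 output, per the file headers, in which the processed signal is an intensity after background subtraction within the array, without scaling between arrays. The methods name an earlier version and LOWESS normalization, for which the headers show no second channel. The authors also deposited a table of log2 values, whose differences between arrays match those of the processed signals within a constant for each pair (median deviation at most 2.94e-07, maximum 0.617). The scale and direction of its columns follow from this match, and how they were centered (their medians were 0.12 and -0.20 in the SkBr3 pair and 0.11 and -0.05 in the BT474 pair) stays unknown and adds only that constant to a difference.

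Spots of the same probe were averaged on the log2 scale, and the 75th percentile of the array was subtracted. Probes were named through RefSeq accessions of GRCh38.p14 (23680 of 41000). The probe with the highest mean log2 signal stood for a gene, which was kept when it reached 100 on at least 1 array. A gene kept through 1 array only can thus enter a count because it was high there. Well above background means that the software marked 50% or more of the spots. A fold against an unmarked signal was taken against the lowest marked signal of that array, or the measured signal where higher. It is not a strict limit, since some unmarked signals lay above the lowest marked one. The number of arrays limits the precision. Python 3.11.15, numpy 2.4.6, pandas 2.3.3, R 4.3.3 and limma 3.58.1 were used, and the steps were tested on simulated arrays. The members, lists, tests and alternatives were chosen with earlier results of these data known, and 2 list genes are not reported here. Named were all members, the genes of each list past 2-fold in a clone (up to 8), SMAD1, SMAD4, SMAD5, SMAD6, SMAD7, BAMBI and NOG, and the 3 genes nearest to a member. Alternatives were other scalings, background correction, offset, filters, spots, gene summary, threshold and blocks.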

Additional observations from a re-analysis of the deposited data

Results flagged for a closer look

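ID1 drew attention because it was at least 2-fold lower in SkBr3/Lap#6 (-3.94) and at least 2-fold higher in BT474/Lap#3 (1.43), a difference of -5.37 on the log2 scale. ATOH8 did so likewise, at -3.22 and 3.49, a difference of -6.71. Neither difference was tested, since each clone and parental line has 1 array.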

How the results depend on the processing

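Over 8 other ways of scaling, correcting or summarizing the signals, all members kept the sign of their changes except BMPR1A in BT474/Lap#3, which kept it under 6, and all kept their side of 2-fold in the clones except BMP4 and ID3 in SkBr3/Lap#6 under normexp correction. Scaling by the median moved the median log2 fold change of all genes to 0.10 (from -0.06) in SkBr3/Lap#6 and to -0.29 (from -0.09) in BT474/Lap#3, where the share of higher genes among those past 2-fold fell from 62.8% to 46.4%. Without the filter the share in SkBr3/Lap#6 was 36.2% in place of 49.6%. Dim signals limit BMP4, BMP2 and BMPR1B most.

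At a threshold of 3-fold, 1 member in place of 3 was higher in BT474/Lap#3, 1 in place of 2 was higher in SkBr3 than in BT474, and 5 in place of 8 list genes were lower in SkBr3/Lap#6. With each probe required to be well above background on the 4 arrays, 1 member in place of 2 was lower in SkBr3 than in BT474. Without the filter, 24 in place of 8 list genes were lower in SkBr3/Lap#6. Most of the added ones were not well above background on either array of the pair, where equal signals give a value below 0. In BT474/Lap#3, 17 in place of 11 were then higher and 3 in place of 1 lower. No share over all genes is given beside the counts under other settings in this paragraph, which show only how a count moved. At the main setting, 9 of 41 list genes were higher and 8 lower in SkBr3/Lap#6, beside 14.1% and 14.4% of all genes. In BT474/Lap#3, 11 were higher and 1 lower, beside 9.13% and 5.41%. The count of lower list genes in BT474/Lap#3 was 2 under median scaling, quantile normalization and normexp correction. The median over all list genes was 0.14 in BT474/Lap#3, against 0.25 with the percentile of the probes marked on every array, 0.29 with all probes of a gene averaged, -0.066 under median scaling, -0.0034 with 16 added to the signal, -0.041 without the filter and -0.0045 among probes marked on every array. In SkBr3/Lap#6 it was -0.05, against 0.11 under median scaling, -0.20 with 16 added and -0.36 without the filter. In limma, 0 probes passed the adjusted p under each of 11 alternatives, and 2 or 3 member probes had an unadjusted p below 0.05, ID4 being the one lost without the cell line block and with slide as the block. With slide in place of cell line, which sets BT474/Lap#3 against the mean of both parental arrays, limma gave 0.76 for ID1 and 0.77 for BMP4. No paired analysis was possible because each group holds 1 array, other than the limma fit whose cell line block pairs each clone with its parental cells. The causes were not tested.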
